A study of Mus musculus with 12 samples.

Results

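The 33 genes described here encode proteins of cholesterol synthesis, its regulation, and cholesterol transport and turnover in the mouse brain. They were given as a list of gene symbols, and all 33 were found among the 23282 gene rows of the count tables. Of these, 18 encode enzymes of synthesis, 7 encode regulators and 8 encode proteins that move cholesterol or remove it. The list does not hold every enzyme of the pathway.

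The adult brain makes its own cholesterol, because the lipoproteins of the blood do not cross the blood-brain barrier. Acetyl units are joined and reduced to mevalonate, mevalonate is turned into isoprenoids, isoprenoids are joined to squalene, and squalene is closed into lanosterol, which is trimmed to cholesterol. The transcription factors Srebf1 and Srebf2 turn on the genes of these enzymes once Scap has carried them out of the endoplasmic reticulum, and Insig1 and Insig2 hold them back when sterols are plentiful. The liver X receptors Nr1h2 and Nr1h3 are activated by oxidized sterols and turn on genes of export such as Abca1. Oligodendrocytes use much cholesterol for myelin, astrocytes supply it on Apoe particles, and neurons clear the surplus through Cyp46a1, which turns it into an oxysterol that leaves the brain.

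The RNAseq data covered striatum and cortex tissue of R6/2 HD mice and WT mice. In R6/2 mice the human HTT promoter drives a transgene that holds exon 1 of HTT with an expanded CAG repeat, and both mouse Htt alleles are kept. By the labels, post-symptomatic HD mice, taken after symptom onset, were 13 weeks old, and pre-symptomatic HD mice, taken before it, were 8 weeks old. The WT mice were also 13 or 8 weeks old. Each combination of stage and region had 2 HD libraries, called replicates 1 and 2, and the WT mice had 1 library per age and region, which gives 12 libraries in all. Total RNA was made into libraries with a Lexogen kit that primes at the 3′ end of transcripts with a poly(A) tail, and 1 transcript gives about 1 read whatever its length. The labels name no separate litters or pools, and they leave unsaid if a striatum and a cortex library of 1 number share a mouse. The p-values therefore measure the spread between these libraries. Bulk tissue was read, so a lower level can stand for fewer cells of a type or for less RNA per cell, and the 2 cannot be told apart.

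The libraries held 8814386 to 12091201 counts, and each of the 33 genes passed the low-count filter in every fit. A member had between 13 counts, for Nr1h3, and 26052 counts, for Apoe, in a library, and only Nr1h3, Idi1 and Tm7sf2 had a library under 50 counts. Levels are given as CPM (counts scaled to library size) after TMM scaling, and values of replicates 1 and 2 are given in that order. There were 2 libraries that stood apart from their group in cell type markers. Pre-symptomatic HD striatum replicate 2 had a summed level of 21426 CPM over 11 oligodendrocyte markers and 964 CPM over 3 thalamus markers, against 3495 and 40.5 CPM in replicate 1. Its striatal neuron markers summed to 2308 CPM, against 7331 CPM in replicate 1, and the defining striatal markers Drd2 and Gpr6 were at 0 in most libraries of both regions. Post-symptomatic HD cortex replicate 2 had 3009 CPM over 4 choroid plexus markers, against 67.8 CPM in replicate 1. Counts of calls are given without these libraries here or in the closing section, and several fold changes between HD stages and against WT mice of 8 weeks are given with and without the first of them. Read from Xist and Y-linked transcripts, HD replicates 1 were male and HD replicates 2 female, the 13-week WT libraries were female and the 8-week WT libraries male.

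The first question was how these genes differed between HD mice after and before symptom onset. Of the 33 genes, 10 passed the test over the 8 HD libraries, with a term for region (edgeR's quasi-likelihood test, adjusted p under 0.05), against 6.45% of all 13944 genes tested. The 9 that fell were the synthesis enzymes Hmgcs1, Mvd, Fdft1, Sqle, Cyp51, Msmo1, Ebp and Dhcr7 and the turnover enzyme Cyp46a1, while 4.53% of all genes fell. The 1 that rose was the exporter Abca1. Among the 18 synthesis enzymes, 17 had a negative log2 fold change and the median was -0.67, beside a median of 0.0023 over all genes tested. The 7 regulators had a median of 0.21, and 0 passed by edgeR or voom. At an unadjusted p under 0.05 there were 2, against 3145 of all 13944 genes, and DESeq2 called 2 (Insig1 lower and Srebf1 higher). Of the 8 transport and turnover genes 2 passed, in opposite directions.

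**Figure D1:**
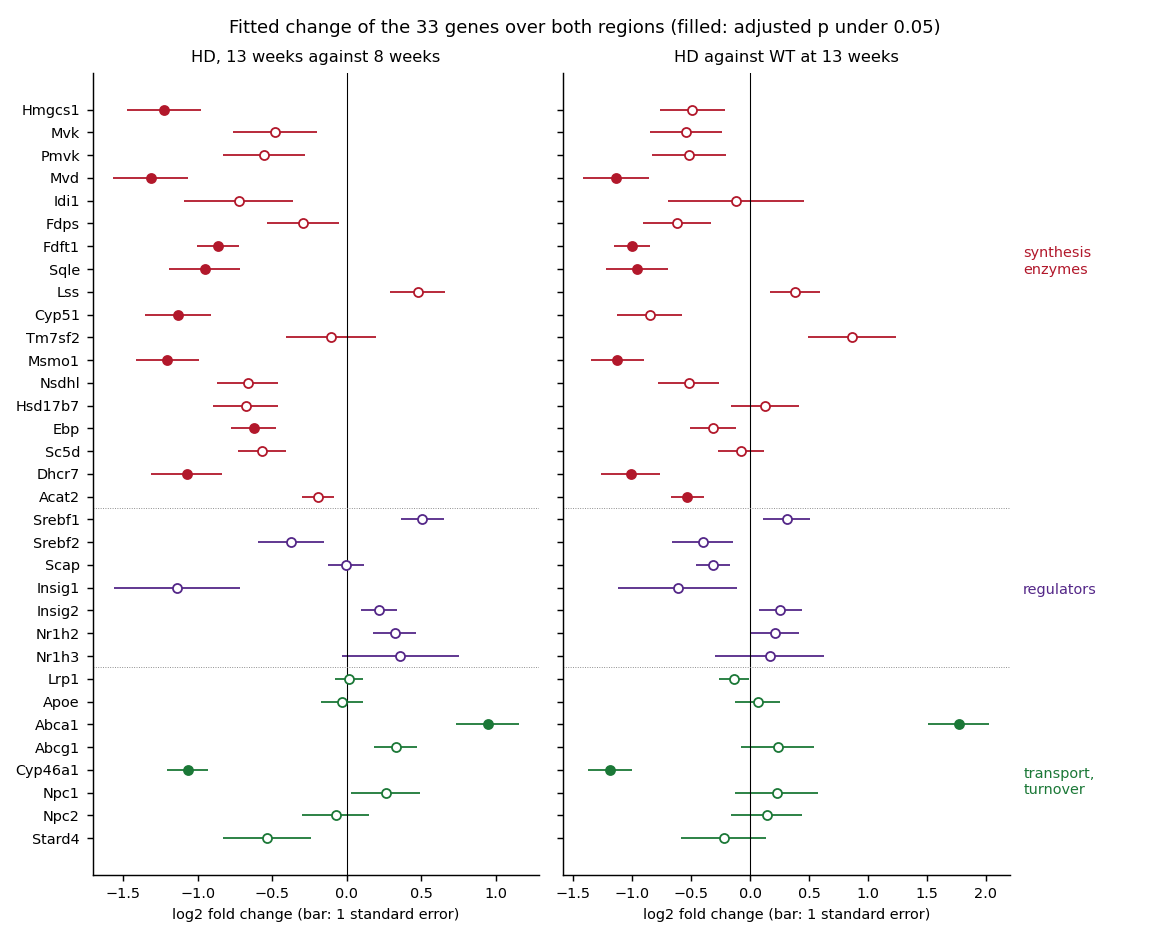
Fitted log2 fold change of each of the 33 genes (horizontal axis, with a bar of 1 standard error) for HD mice at 13 against 8 weeks (left) and for HD against WT mice at 13 weeks (right), both regions together. Filled points have an adjusted p under 0.05, and colours mark the 18 synthesis enzymes, 7 regulators and 8 transport and turnover genes. On the left the synthesis enzymes lie below 0 except Lss, and Cyp46a1 and Abca1 lie on opposite sides of 0 in both panels.

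Hmgcs1, which joins acetyl units to the precursor of mevalonate and lies in mm10 at chr13:119690379-119708260, plus strand, had the highest mean CPM of the synthesis enzymes. Its level was 180.2 and 433 CPM in pre-symptomatic HD striatum and 114 and 118 CPM in post-symptomatic HD striatum. In HD cortex it was 306 and 396 CPM before and 167 and 168 CPM after onset. All post-symptomatic HD libraries lay below all pre-symptomatic libraries of their region, and the highest value was in the striatum library rich in oligodendrocyte markers. The fitted log2 fold change was -1.23 (SE 0.25, adjusted p = 0.0256). In WT mice Hmgcs1 was at 188 CPM in the striatum and 276 CPM in cortex at 8 weeks, and at 142 and 265 CPM at 13 weeks. The pre-symptomatic HD cortex libraries thus lay above both WT cortex libraries and the post-symptomatic ones below both.

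Mvd, which makes the isoprenoid building block isopentenyl pyrophosphate, had the most negative fold change of the 33 genes in this comparison. It went from 15.8 and 30.3 CPM to 9.50 and 11.8 CPM in HD striatum. The HD cortex held 25.1 and 40.3 CPM before and 10.8 and 11.9 CPM after onset. The stages did not overlap in either region, and the fitted change was -1.32 (SE 0.25, adjusted p = 0.0166). In WT striatum it was at 25.8 CPM at 8 weeks and 17.4 CPM at 13 weeks, and in WT cortex at 38.8 and 32.7 CPM.

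Fdft1 is squalene synthase, the first enzyme committed to sterols, and lies at chr14:63145150-63179578, minus strand. HD striatum had 55.96 and 60.6 CPM before onset and 24.4 and 33.9 CPM after it. HD cortex had 69.9 and 70.01 CPM and then 38.9 and 44.2 CPM. The pre-symptomatic replicates were close to each other here, also in the striatum pair that differed for Hmgcs1, and the stages did not overlap. Fdft1 had a fitted change of -0.86 (SE 0.14, adjusted p = 0.00937). WT libraries were at 52.4 and 59.6 CPM in the striatum and at 83.4 and 81.6 CPM in cortex at 8 and 13 weeks, so that every post-symptomatic HD library lay below every WT library of its region. Ctsb, on the opposite strand, overlaps the 3′ end of Fdft1 by 774 bases. Whether the counting used strand is not given in the sources used here, and the HD stages of Ctsb differed by a log2 ratio of -0.048.

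Sqle, squalene epoxidase, was at 20.1 and 36.5 CPM in pre-symptomatic and 12.2 and 11.3 CPM in post-symptomatic HD striatum. In cortex the values were 28.1 and 42.5 and then 19.8 and 24.4 CPM, with the nearest libraries of the stages closer than in striatum. The fitted change over both regions was -0.95 (SE 0.24, adjusted p = 0.0419). WT striatum held 35.1 CPM at 8 weeks and 20.9 CPM at 13 weeks, and WT cortex 48.3 and 46.1 CPM.

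Cyp51 and Msmo1 remove methyl groups from lanosterol and the sterols made from it. For Cyp51, HD striatum was at 47.3 and 105 CPM before and 34.5 and 34.95 CPM after onset. HD cortex was at 64.9 and 77.3 and then 31.1 and 32.7 CPM. The 4 post-symptomatic libraries lay within a narrow band in both regions, and the fitted change was -1.13 (SE 0.22, adjusted p = 0.0184). In WT mice Cyp51 was at 79.9 CPM in the striatum and 104 CPM in cortex at 8 weeks, and at 44.6 and 77.00 CPM at 13 weeks. Its 3′ end shares 166 bases with Akap9 on the opposite strand, which was at 130.5 to 666 CPM and had a log2 ratio of -0.28 between the HD stages. For Msmo1, HD striatum went from 77.04 and 153 CPM to 44.8 and 38.9 CPM. HD cortex went from 99.6 and 112 CPM to 56.9 and 51.2 CPM. The fitted change was -1.20 (SE 0.21, adjusted p = 0.0134), and the post-symptomatic levels were also below every WT value, which were 109.6 and 93.2 CPM in the striatum and 139.9 and 116 CPM in cortex at 8 and 13 weeks.

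Ebp and Dhcr7 act near the end of the pathway, where the double bonds of the sterol ring are moved and reduced. Ebp had 43.8 and 53.9 CPM in pre-symptomatic and 32.9 and 35.5 CPM in post-symptomatic HD striatum. In HD cortex it had 47.3 and 56.4 and then 34.5 and 26.8 CPM. The fitted change of Ebp, -0.63 (SE 0.15, adjusted p = 0.0363), was the smallest among the 8 enzymes. WT Ebp was at 39.3 and 32.03 CPM in the striatum and at 48.8 and 49.7 CPM in cortex, so that in striatum the 13-week WT library lay below both post-symptomatic HD libraries. Dhcr7, which makes cholesterol from its last precursor, had 13.8 and 17.3 CPM before and 5.22 and 7.38 CPM after onset in HD striatum. Its cortex values were 12.8 and 20.9 and then 8.24 and 10.1 CPM. The change was -1.07 (SE 0.24, adjusted p = 0.0277), and the WT values of 14.4 and 12.7 CPM in the striatum and 19.1 and 18.6 CPM in cortex all lay above the post-symptomatic HD values.

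**Figure D2:**
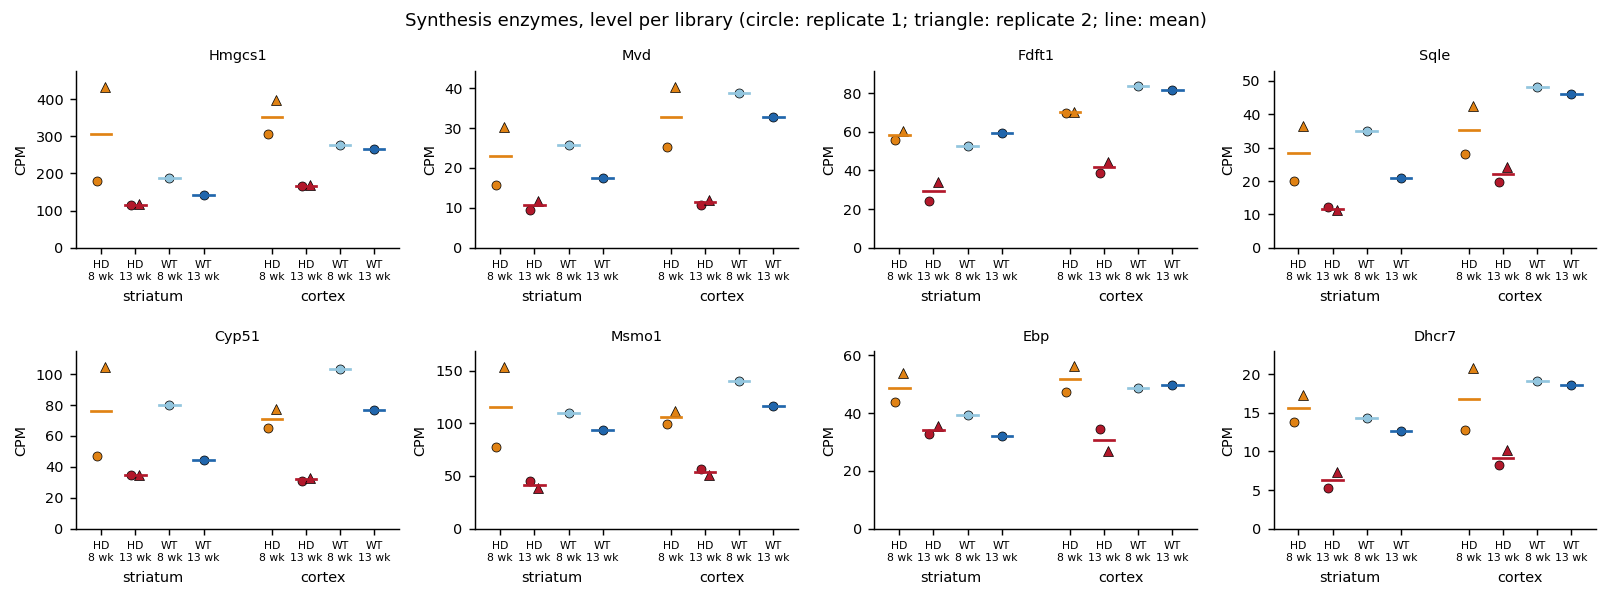
Level in CPM (vertical axis, from 0) of the 8 synthesis enzymes that fell between HD stages, in each of the 12 libraries, with striatum left and cortex right in each panel. Circles are replicate 1, triangles replicate 2 and lines the mean. In each panel both post-symptomatic (HD, 13 weeks) points of a region lie below both pre-symptomatic (HD, 8 weeks) points, and the pre-symptomatic striatum pair is wide for Hmgcs1, Cyp51 and Msmo1 and narrow for Fdft1.

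The other 10 synthesis enzymes did not pass in this comparison. Acat2, which joins acetyl units at the entry to the pathway, and the late enzymes Nsdhl and Sc5d also had every post-symptomatic library below every pre-symptomatic library of their region. With the 8 enzymes above that made 11 of 18 synthesis enzymes, and 12 of all 33 genes with Cyp46a1, where 11.3% of all genes tested did so. Nsdhl had a fitted change of -0.66 (SE 0.20, adjusted p = 0.0862) and Sc5d of -0.57 (SE 0.16, adjusted p = 0.0680). Hsd17b7, a ketone reductase of the late pathway, had -0.68 (SE 0.22, adjusted p = 0.0965). Lss, which closes squalene epoxide into lanosterol, was the one synthesis enzyme with a positive fold change, 0.47 (SE 0.18, adjusted p = 0.157), and its post-symptomatic levels of 14.2 and 18.1 CPM in the striatum and 12.1 and 15.9 CPM in cortex lay above the pre-symptomatic 11.7 and 11.5 CPM in striatum and 10.8 and 9.68 CPM in cortex. The gene 4930483K19Rik, which overlaps Lss on the other strand, had at most 0.962 CPM. The remaining 5 were Mvk (-0.48), Pmvk (-0.56), Idi1 (-0.73), Fdps (-0.29) and Tm7sf2 (-0.10), with adjusted p-values of 0.271 or more except 0.264 for Pmvk. With pre-symptomatic HD striatum replicate 2 left out these fold changes were -0.28 for Mvk, -0.17 for Pmvk, -0.42 for Idi1, -0.07 for Fdps and -0.0076 for Tm7sf2, so that each moved by over 1.5 times with that library. Reads of Tm7sf2 are uncertain, since Vps51 overlaps it on the same strand by 532 bases.

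Cell type markers moved with the stage as well. Of 5 pan-neuronal markers, 4 fell between the HD stages (Rbfox3 -0.84, Snap25 -0.72, Syt1 -0.74 and Tubb3 -0.73 on the log2 scale), and the summed level of all 5 was 2912 and 3448 CPM in pre-symptomatic and 1899 and 2023 CPM in post-symptomatic HD striatum. In HD cortex the sums were 6724 and 6461 CPM before and 4191 and 3966 CPM after onset. Of 8 striatal neuron markers tested, all had negative fold changes with a median of -1.11, and 3 fell, among them Penk (-1.81) and Ppp1r1b (-1.78). The 8 astrocyte markers had 7 negative fold changes with a median of -0.42, and the glutamate transporter Slc1a2 fell (-0.92), while DESeq2 called 3 of them lower. Their summed level was 3900.1 and 4387 CPM in pre-symptomatic and 2559 and 2976 CPM in post-symptomatic HD striatum. In HD cortex the astrocyte sums were 5237 and 5247 CPM before and 2912 and 2998 CPM after onset, and no post-symptomatic library reached a pre-symptomatic one of its region. All 8 cortical excitatory neuron markers had negative fold changes with a median of -0.71, of which 0 passed by edgeR or voom, 3 had an unadjusted p under 0.05 by edgeR, and DESeq2 called 2. The 11 oligodendrocyte markers had 10 negative fold changes with a median of -0.64, of which 0 passed by edgeR, DESeq2 or voom and 0 had an unadjusted p under 0.05 by edgeR. Their part in the result was not tested. The summed level of the 18 synthesis enzymes was 656 and 1203 CPM in pre-symptomatic and 479 and 491 CPM in post-symptomatic HD striatum. In HD cortex it was 908 and 1074 CPM before and 555 and 574 CPM after onset. The oligodendrocyte marker sums in HD cortex, 2419 and 2751 CPM before and 2520.1 and 2831 CPM after onset, were close. In HD striatum these marker sums were 3495 and 21426 CPM before and 4529 and 7537 CPM after onset, so that their direction rested on replicate 2 before onset.

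**Figure D3:**
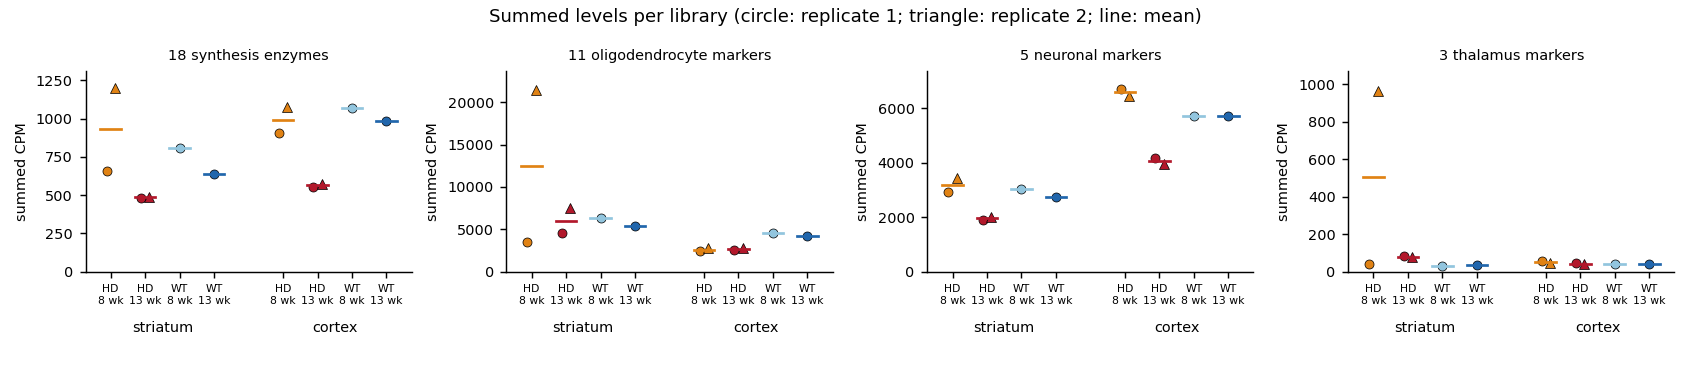
Summed level in CPM (vertical axes, from 0) of the 18 synthesis enzymes and of oligodendrocyte, neuronal and thalamus markers in each of the 12 libraries. Circles are replicate 1, triangles replicate 2 and lines the mean. Pre-symptomatic HD striatum replicate 2 stands at 1203 CPM for the enzymes, 21426 CPM for the oligodendrocyte markers and 964 CPM for the thalamus markers, and the 4 post-symptomatic HD libraries lie between 479 and 574 CPM for the enzymes.

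Without pre-symptomatic HD striatum replicate 2, the same 10 genes passed in the same directions, where 10.6% of all 14300 genes tested passed. The median of the 33 genes went from -0.48 to -0.28 and that of the synthesis enzymes to -0.53. The fold changes of Hmgcs1 and Sqle were then -0.89 and -0.70, and those of Fdft1 and Cyp46a1 -0.81 and -1.11. With post-symptomatic HD cortex replicate 2 left out too, 7 of the 10 passed and Mvd, Sqle and Ebp did not. Leaving out any 1 other HD library gave 2 to 16 calls among the 33 genes. The shares of all genes in these fits, and in the fit without both libraries, are not given here. There were 2 calls without post-symptomatic striatum replicate 1, post-symptomatic cortex replicate 2 or pre-symptomatic cortex replicate 2, 3 without post-symptomatic cortex replicate 1, 4 without post-symptomatic striatum replicate 2, 5 without pre-symptomatic cortex replicate 1, and 16 without pre-symptomatic striatum replicate 1. Fdft1 and Cyp46a1 passed in each of the 8 leave-one-out fits. Msmo1 passed in 5 of 8, Mvd in 4 of 8, Dhcr7 in 3 of 8, and Hmgcs1, Sqle, Cyp51, Ebp and Abca1 in 2 of 8.

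Taken region by region in the fit with a mean for each HD group, 0 of the 33 genes passed in striatum by edgeR, where 0.16% of all genes did, and 0 in cortex, where 0.591% did. At an unadjusted p under 0.05 there were 13 in striatum and 10 in cortex. Of all 14392 genes, 1872 and 2061 had such a p. DESeq2 called 8 and 3 of the 33 genes, and its share over all genes is not given here. The median of the synthesis enzymes was -0.58 in striatum and -0.76 in cortex. Without pre-symptomatic HD striatum replicate 2 the striatum median was -0.29 and 5 of the 33 genes passed there (7.02% of all genes), namely Hmgcs1, Fdft1, Msmo1, Cyp46a1 and Abca1. In cortex the same fit called 8 genes (7.98% of all genes), which were Hmgcs1, Mvd, Fdft1, Cyp51, Msmo1, Hsd17b7, Ebp and Cyp46a1. The cortex libraries were the same in both fits, which take 1 estimate of spread from all HD groups. With pre-symptomatic HD striatum replicate 1 left out instead, the library rich in oligodendrocyte and thalamus markers stood alone for its group. Calls of that fit are therefore not set against those above. A test of the difference between the regions called 0 of the 33 genes and 0% of all genes by edgeR. Abca1 was the 1 member with an unadjusted p under 0.05 there (0.85, SE 0.34), 519 of all 14392 genes had one, and DESeq2 called 0 members and 17 genes in all.

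Promoter sequences are shown for 3 enzymes that fell together and for the 2 other genes that passed, because the known control of synthesis genes acts there. Each window runs from 250 bases before to 50 bases after the RefSeq start (GRCm38.p6), 5′ to 3′ on the gene's strand, and capitals mark the motifs found. Hmgcs1 is at chr13:119690101-119690400, plus strand, Cyp51 at chr5:4104648-4104947, minus strand, Msmo1 at chr8:64733529-64733828, minus strand, Abca1 at chr4:53159846-53160145, minus strand and Cyp46a1 at chr12:108334066-108334365, plus strand.
Hmgcs1: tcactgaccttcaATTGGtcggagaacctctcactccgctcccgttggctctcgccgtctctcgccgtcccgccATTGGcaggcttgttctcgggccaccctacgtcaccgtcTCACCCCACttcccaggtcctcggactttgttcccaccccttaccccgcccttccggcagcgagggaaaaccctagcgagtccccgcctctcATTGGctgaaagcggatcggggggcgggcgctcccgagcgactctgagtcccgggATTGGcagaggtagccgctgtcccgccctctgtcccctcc
Cyp51: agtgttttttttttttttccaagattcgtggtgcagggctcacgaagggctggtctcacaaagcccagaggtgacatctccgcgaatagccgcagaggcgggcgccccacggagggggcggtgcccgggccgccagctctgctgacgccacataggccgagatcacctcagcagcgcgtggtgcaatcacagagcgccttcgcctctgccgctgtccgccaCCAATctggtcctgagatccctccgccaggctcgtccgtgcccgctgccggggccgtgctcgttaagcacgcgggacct
Msmo1: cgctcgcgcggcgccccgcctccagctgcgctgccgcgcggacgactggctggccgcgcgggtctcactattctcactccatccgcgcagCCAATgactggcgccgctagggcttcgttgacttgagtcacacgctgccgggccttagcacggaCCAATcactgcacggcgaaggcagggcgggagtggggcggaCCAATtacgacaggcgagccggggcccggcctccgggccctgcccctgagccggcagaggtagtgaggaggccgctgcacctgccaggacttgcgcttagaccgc
Abca1: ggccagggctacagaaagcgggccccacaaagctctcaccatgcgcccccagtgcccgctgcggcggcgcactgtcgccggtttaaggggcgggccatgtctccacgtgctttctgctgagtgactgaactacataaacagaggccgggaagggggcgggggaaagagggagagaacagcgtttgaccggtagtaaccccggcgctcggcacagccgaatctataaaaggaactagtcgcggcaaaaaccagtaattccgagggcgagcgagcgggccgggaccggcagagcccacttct
Cyp46a1: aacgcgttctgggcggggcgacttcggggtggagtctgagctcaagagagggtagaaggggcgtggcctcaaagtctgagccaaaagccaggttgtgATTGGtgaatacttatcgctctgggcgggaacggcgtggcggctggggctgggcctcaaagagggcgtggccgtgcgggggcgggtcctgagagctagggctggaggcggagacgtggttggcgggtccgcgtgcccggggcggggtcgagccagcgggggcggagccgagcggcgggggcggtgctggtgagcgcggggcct

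The windows were searched on both strands for the core TCACNCCAC of the sterol regulatory element, the site of the Srebf factors, and for the NF-Y box CCAAT, whose factor is known to act beside them. The capitals in Hmgcs1 are 1 element, TCACCCCAC, whose first base is at -137 from the start, and 4 NF-Y boxes, which read ATTGG where they lie on the other strand, and no 2 of them overlap. Cyp51 holds 1 NF-Y box, Msmo1 holds 3, Cyp46a1 holds 1, and Abca1 holds neither motif. Windows were found for 27 of the 33 genes, and Fdft1 and Sqle were not among them. Of the synthesis enzymes with a window, 14 of 15 had an NF-Y box in at least 1 window, against 41.06% of all 27025 genes with a window. The regulators had it in 4 of 7 and the transport and turnover genes in 2 of 5. The exact element core was found in 1 of these genes, and in 1.436% of all genes with a window. A match describes the letters only, and the absence of one says that these letters are not in this window.

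Cyp46a1, the enzyme through which neurons clear cholesterol, had the lowest adjusted p of the 33 genes between HD stages. It lies at chr12:108334381-108362234, plus strand. Pre-symptomatic HD striatum had 185 and 141 CPM and post-symptomatic HD striatum 66.8 and 70.7 CPM. In HD cortex the levels were 199.9 and 148 and then 91.5 and 93.1 CPM. The stages were far apart in both regions, and here the pre-symptomatic striatum library rich in oligodendrocyte markers was the lower of its pair, whereas it was the higher for the 8 synthesis enzymes that fell. The fitted change was -1.07 (SE 0.14, adjusted p = 0.00360). WT mice had 182 CPM in the striatum and 159 CPM in cortex at 8 weeks, and 204 and 161 CPM at 13 weeks. The pan-neuronal markers, which fell by 0.72 to 0.84 on the log2 scale where they passed, moved in the same direction.

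Abca1 loads cholesterol onto lipoprotein particles such as those of Apoe. It was at 17.8 and 27.2 CPM in pre-symptomatic and 53.6 and 60.2 CPM in post-symptomatic HD striatum. HD cortex had 22.00 and 22.7 CPM before and 30.2 and 34.2 CPM after onset. The rise was 0.94 (SE 0.21, adjusted p = 0.0281) over both regions. WT libraries had 19.98 and 14.9 CPM in the striatum and 10.96 and 10.7 CPM in cortex at 8 and 13 weeks, so that all HD cortex libraries and both post-symptomatic striatum libraries lay above every WT library of their region.

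The remaining transport genes did not pass between stages. Apoe, the main carrier of cholesterol between brain cells, had the highest CPM of its group, with 2065 and 2624 CPM in pre-symptomatic and 2164 and 2765 CPM in post-symptomatic HD striatum. Its HD cortex levels were 1884 and 2060.1 CPM before and 1627 and 1911 CPM after onset, and the WT levels 1832 and 2010.2 CPM in the striatum and 2213 and 1998 CPM in cortex. The stages overlapped in both regions, and the fitted change was -0.031 (SE 0.14, adjusted p = 0.927). The related exporter Abcg1 had 0.33 (SE 0.15, adjusted p = 0.215), with every post-symptomatic library above every pre-symptomatic library of its region. Lrp1, a receptor that takes up Apoe particles, had 0.017 (SE 0.093, adjusted p = 0.940) and ranged from 153 to 204 CPM over the 12 libraries. Npc1 and Npc2, which move cholesterol out of lysosomes, had 0.26 and -0.075, and Stard4, a carrier within the cell, had -0.54, each with an adjusted p of 0.319 or more. Without pre-symptomatic HD striatum replicate 2 they were at 0.48, 0.20 and -0.31, and again none of the 3 passed (adjusted p = 0.172, 0.508 and 0.572 by edgeR).

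Among the regulators, Scap had the highest mean level. Its values were 82.4 and 63.5 CPM in pre-symptomatic and 64.3 and 77.5 CPM in post-symptomatic HD striatum. HD cortex had 62.7 and 68.8 CPM before and 67.6 and 64.3 CPM after onset, and the stages overlapped in both regions (-0.0054, SE 0.12, adjusted p = 0.985). WT levels were 94.5 and 92.6 CPM in the striatum and 79.3 and 77.8 CPM in cortex, above the HD libraries of the same age and region. Insig1 is itself a target of the Srebf factors. It had 8.43 and 33.7 and then 5.68 and 11.97 CPM in HD striatum, 17.2 and 22.8 and then 8.59 and 10.9 CPM in HD cortex, and a fitted change of -1.14 (SE 0.42, adjusted p = 0.153). The cortex stages were apart and the striatum stages overlapped. Without pre-symptomatic HD striatum replicate 2 the change of Insig1 was -0.62 (adjusted p = 0.259 by edgeR) over both regions, and in striatum alone it was 0.07. The fall of Insig1 in striatum thus rested on that library. In cortex, where that library has no part, the log2 ratio of the mean levels of the HD stages was -1.03. Srebf1, which also governs fatty acid synthesis, was at 29.4 and 32.4 and then 42.96 and 47.1 CPM in HD striatum and at 27.5 and 22.6 and then 29.7 and 38.4 CPM in HD cortex. Its post-symptomatic libraries lay above the pre-symptomatic ones, with a change of 0.51 (SE 0.14, adjusted p = 0.0658), and Rai1 on the opposite strand overlaps its 3′ end by 109 bases. Srebf2, the main activator of the synthesis genes, had -0.37 (SE 0.22, adjusted p = 0.354). Insig2, Nr1h2 and Nr1h3 had 0.21, 0.32 and 0.36 with adjusted p-values from 0.230 to 0.644.

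**Figure D4:**
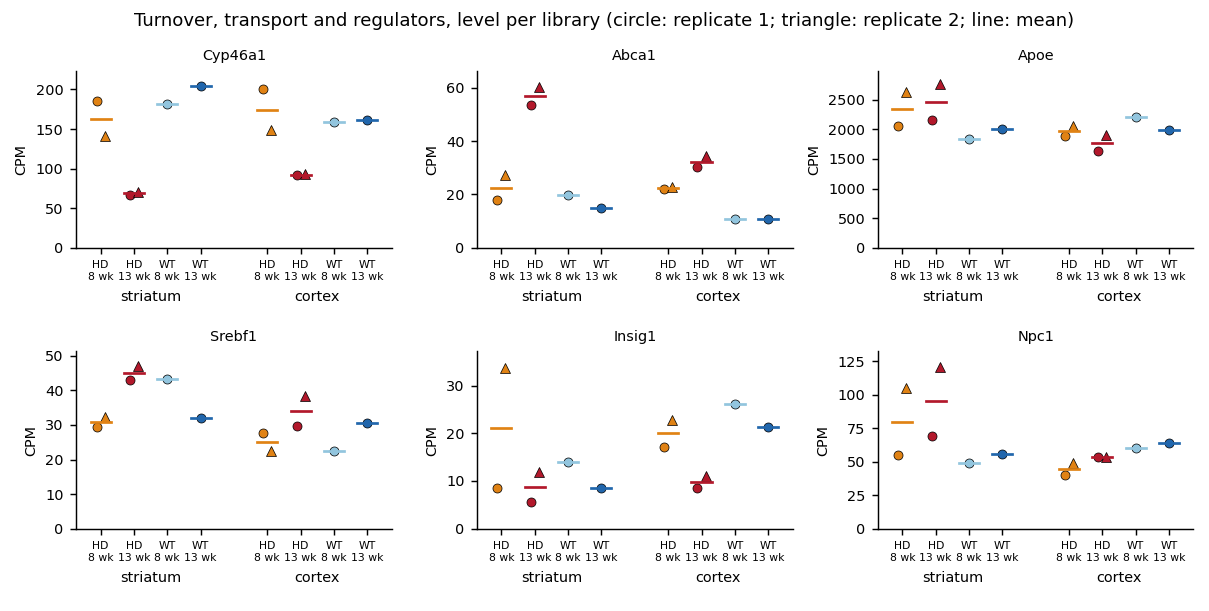
Level in CPM (vertical axes, from 0) of Cyp46a1, Abca1, Apoe, Srebf1, Insig1 and Npc1 in each of the 12 libraries, with striatum left and cortex right in each panel. Circles are replicate 1, triangles replicate 2 and lines the mean. The post-symptomatic (HD, 13 weeks) points lie lowest of their region for Cyp46a1 and highest for Abca1, while for Apoe they overlap the pre-symptomatic points.

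The second question was how HD mice differed from WT mice of the same age. At 13 weeks 8 of the 33 genes passed in the fit of all 12 libraries with region as a term, against 7.36% of all 14706 genes tested, and 7 of them were lower in HD mice, against 4.26% of all genes. Lower were Mvd, at -1.14 (SE 0.28, adjusted p = 0.0287), Fdft1, at -1.002 (SE 0.16, adjusted p = 0.00392), and Sqle, at -0.96 (SE 0.27, adjusted p = 0.0476). Lower too were Msmo1, at -1.13 (SE 0.22, adjusted p = 0.0118), Dhcr7, at -1.01 (SE 0.25, adjusted p = 0.0312), and Acat2, at -0.53 (SE 0.14, adjusted p = 0.0377). Cyp46a1 was lower, at -1.19 (SE 0.19, adjusted p = 0.00414), and Abca1 higher, at 1.77 (SE 0.26, adjusted p = 0.00317). This comparison shares the post-symptomatic HD libraries with that of the stages.

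Acat2 passed in this comparison only. Its levels were 76.97 and 81.2 CPM in post-symptomatic HD striatum and 68.5 and 68.2 CPM in post-symptomatic HD cortex, against 96.7 and 116 CPM in WT mice of 13 weeks. Before onset HD mice had 83.9 and 94.5 CPM in the striatum and 82.01 and 78.9 CPM in cortex, and WT mice of 8 weeks 105 and 119.6 CPM. HD libraries thus lay below the WT library of their region at both ages. Hmgcs1 and Cyp51, which fell between the HD stages, did not pass against WT mice (-0.49, SE 0.28, adjusted p = 0.334 for Hmgcs1, and -0.85, SE 0.28, adjusted p = 0.0875 for Cyp51), and neither did Ebp (-0.32, SE 0.19, adjusted p = 0.379). In all, 12 of the 33 genes had every HD library below the WT library of its region at 13 weeks, where 22.6% of all genes tested did, and 10 of these 12 were synthesis enzymes. The other 2 were Scap and Cyp46a1. Tm7sf2 had an unadjusted p under 0.05 in the other direction (0.86, SE 0.37, adjusted p = 0.189).

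Each WT group held 1 library, so these tests take the spread of WT mice from the HD libraries and from the fit as a whole. Fdft1, Msmo1, Cyp46a1 and Abca1 passed in each of the 8 fits with 1 HD library left out. Fits without a pre-symptomatic HD library still compare the same 13-week libraries, and no fit left out a WT library. Without pre-symptomatic HD striatum replicate 2, the 8 genes passed together with Hmgcs1 and Cyp51, where 12.5% of all genes passed. The fold changes of Hmgcs1 and Cyp51 did not grow, at -0.47 and -0.82 without that library and -0.49 and -0.85 with it. Counts fell to 4 without post-symptomatic HD striatum replicate 1 or post-symptomatic HD cortex replicate 1, and to 5 without post-symptomatic HD cortex replicate 2. With sex as a term 4 passed, and Mvd, Sqle, Dhcr7 and Acat2 did not. For these lower counts the shares of all genes are not given here. The ribosomal RNA precursor took 10.5% to 15.2% of counts in HD and 4.32% to 5.62% in WT libraries, and with it removed the same 8 genes passed. Removing this 1 row bears only on its part in the scaling. The gap divides all HD from all WT libraries, so what goes with it cannot be told apart from genotype and was not tested. Of the pan-neuronal markers, 2 of 5 were lower in HD mice at 13 weeks (Rbfox3 -0.97 and Snap25 -0.74). Of 11 oligodendrocyte markers, 0 passed by edgeR, DESeq2 or voom or had an unadjusted p under 0.05 by edgeR. The oligodendrocyte marker sums still differed in cortex, with 2520.1 and 2831 CPM in post-symptomatic HD mice against 4247 CPM in WT mice. In striatum the HD sums of 4529 and 7537 CPM lay on either side of the WT sum of 5334 CPM. Of the 8 striatal neuron markers tested, all had negative fold changes with a median of -1.67, and 4 were lower in HD mice, among them Penk (-2.85), Ppp1r1b (-2.21) and Tac1 (-1.65). The 8 astrocyte markers had 5 negative fold changes with a median of -0.20. None of them passed by edgeR, 2 had an unadjusted p under 0.05, and DESeq2 called 2 and voom 1 lower. Their part in the result was not tested.

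At 8 weeks 0 of the 33 genes passed between HD and WT mice by edgeR, DESeq2 or voom, where 2.1% of all genes passed by edgeR. Unadjusted p-values under 0.05 were found for 3 genes, Acat2 (-0.41), Scap (-0.32) and Abca1 (0.60), with adjusted p-values of 0.195 to 0.331. Of all 14706 genes tested, 2049 had such a p. The median of the 18 synthesis enzymes was -0.048, beside -0.53 at 13 weeks. Without pre-symptomatic HD striatum replicate 2, whose synthesis enzymes summed to 1203 CPM against 656 CPM in replicate 1 and 807 CPM in WT striatum, that median was -0.17. Again 0 of the 33 genes passed by edgeR, where 3.04% of all genes did. An unadjusted p under 0.05 was found for 7, and the share of all genes with one in this fit is not given here. The 7 were Pmvk (-0.54), Fdps (-0.86), Sqle (-0.64), Cyp51 (-0.60), Msmo1 (-0.44) and Acat2 (-0.46), all below 0, and Abca1 (0.60). Hmgcs1 went from 0.53 to 0.19 and Insig1 from 0.09 to -0.47. With any 1 of the other 7 HD libraries left out 0 of the 33 genes passed as well. With a replicate block the median of the synthesis enzymes was -0.21. In striatum HD replicate 1 and replicate 2 lay on either side of the WT value for several enzymes, as Msmo1 shows with 77.04 and 153 CPM against 109.6 CPM.

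Between WT mice of 8 and 13 weeks 0 of the 33 genes passed by edgeR, DESeq2 or voom, where 0.0136% of all genes passed by edgeR. Idi1 alone had an unadjusted p under 0.05 (-1.53, SE 0.68, adjusted p = 1), and it rests on 1 library, since Idi1 was at 18.6 CPM in 8-week WT striatum and at 3.43, 4.50 and 4.91 CPM in the other WT libraries. The WT ages also differed in sex, so that age and sex cannot be told apart there. The synthesis enzymes had 15 of 18 negative values in WT mice, with a median of -0.23.

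The change with age in HD mice was also set against that in WT mice in 1 test, and 0 of the 33 genes passed by edgeR, where 0.116% of all genes did. At an unadjusted p under 0.05 there were 7, against 1312 of all 14706 genes tested. In the order of p the 7 were Cyp46a1 (-1.17, SE 0.27, adjusted p = 0.168), Fdft1 (-0.95), Abca1 (1.16), Msmo1 (-0.96), Dhcr7 (-0.98), Hmgcs1 (-1.02) and Mvd (-0.93). DESeq2 called 2 genes, Cyp46a1 and Fdft1, and voom 0, and with pre-symptomatic HD striatum replicate 2 left out edgeR called Cyp46a1. With all 12 libraries edgeR thus showed for none of the 33 genes that the fall between HD stages differed from the change between WT ages.

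**Figure D5:**
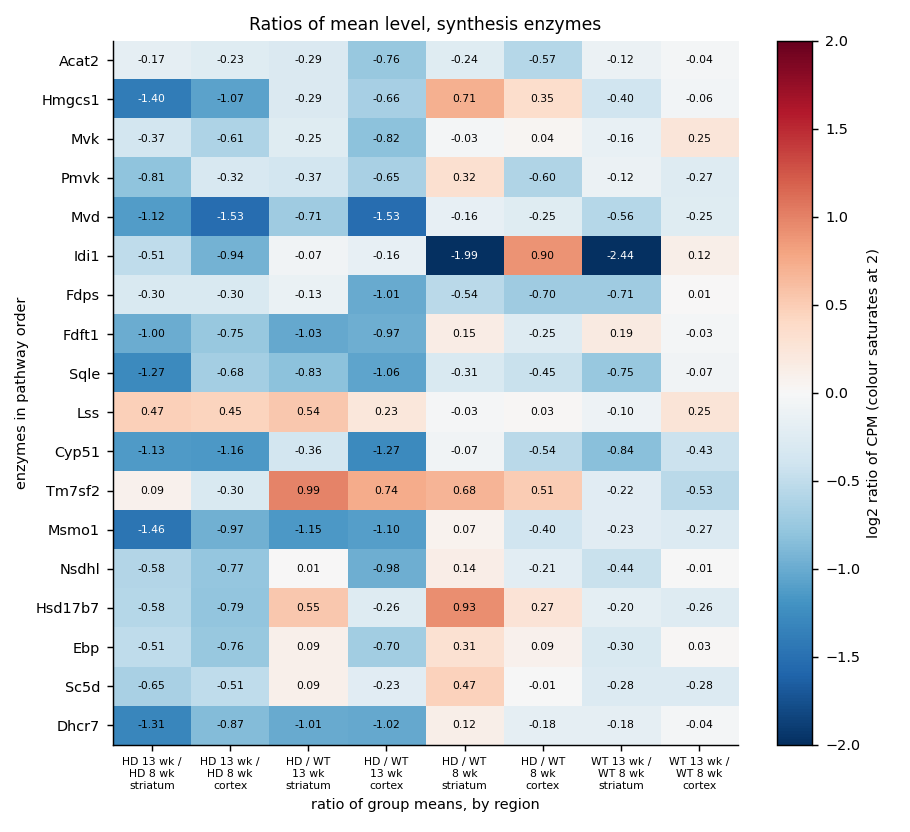
Log2 ratio of mean CPM for the 18 synthesis enzymes in pathway order (rows), for 4 comparisons in striatum and cortex (columns), with blue below 0 and red above. HD groups are means of 2 libraries and WT groups are 1 library each, and no test is shown. The columns of HD stages are blue except for Lss and, in striatum, Tm7sf2, the columns of HD against WT mice at 8 weeks hold both colours, and the -2.44 of Idi1 in WT striatum comes from 1 library.

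The regions were compared in the fit of all 12 libraries. Of the 33 genes, 4 passed, against 20.6% of all genes tested. Fdft1 (-0.45, SE 0.11, adjusted p = 0.0113) and Sqle (-0.67, SE 0.18, adjusted p = 0.0211) were lower in striatum. Srebf1 (0.40, SE 0.13, adjusted p = 0.0474) and Abca1 (0.50, SE 0.16, adjusted p = 0.0443) were higher there. In WT mice Srebf1 was at 43.3 CPM in the striatum and 22.3 CPM in cortex at 8 weeks, and at 32.03 and 30.7 CPM at 13 weeks, so the regions were close at the later age. Pre-symptomatic HD striatum replicate 2 bore on the count, since 9 genes passed without it, where 25.4% of all genes did, and 7 of them were synthesis enzymes lower in striatum (Hmgcs1, Mvd, Fdft1, Sqle, Msmo1, Hsd17b7 and Sc5d). Fdft1 passed in all 8 fits with 1 HD library left out, and Srebf1 in 1 of 8. Without any 1 of the other 7 HD libraries 1 to 3 of the 33 genes passed, and the shares of all genes in those fits are not given here.

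Genes of neighbouring pathways were tested in the same fits, where 6.45% of all genes passed between HD stages, 7.36% between HD and WT mice at 13 weeks and 20.6% between regions. Of 12 genes of fatty acid synthesis, Fads1, a desaturase of long-chain fatty acids, fell between HD stages (-0.74, SE 0.11, adjusted p = 0.00642) and was lower in HD than WT mice at 13 weeks (-0.97, SE 0.12, adjusted p = 0.00176), and the other 11 did not pass in either. Of the 12, 11 had a negative fold change between HD stages, with a median of -0.27, and DESeq2 called 2 lower. Acly, which supplies acetyl units, and Elovl5, an elongase, were higher in striatum (0.36 and 0.50). Of 26 other genes of cholesterol handling 25 were tested, and Lcat, which esterifies cholesterol on lipoproteins, fell between HD stages (-1.34, SE 0.31, adjusted p = 0.0354), while voom called none of the 25 and DESeq2 called 2 lower. Their median was -0.019. Against WT mice at 13 weeks 0 of the 25 passed by edgeR or voom, and DESeq2 called 2. By edgeR 5 had an unadjusted p under 0.05, as did 3281 of all 14706 genes. In the comparison of regions Lpl (2.18), Mbtps1 (0.71) and Scarb1 (0.95) were higher and Lrp8 (-0.85) lower in striatum.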

How the data were processed

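RNAseq counts of 12 libraries of mouse striatum and cortex were used. The authors deposited 1 table of raw counts per library, giving the reads on each gene symbol. The submitters' processing notes name Bowtie2, bedtools and the build mm10, without versions. The counting rule, the annotation and the use of strand are not given in the sources used here. Reads carry no molecular identifiers, so precision from counts covers counting error only. Of the 23282 gene rows, 4306 were without a count in all libraries and 44 were further entries of a symbol. The 2 libraries of an HD group were not copies, with a chi-square of 6.978 to 72.996 per degree of freedom between them.

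Groups came from the sample labels. The robust quasi-likelihood test of edgeR 4.0.16 in R 4.3.3 gave fold changes and p-values, after TMM normalization and filterByExpr at 10 counts, over all genes kept, with Benjamini-Hochberg adjustment and a threshold of 0.05. The study's methods name no test for these counts. The fit of HD stages used the 8 HD libraries and a term for region, or a mean per group for single regions. Comparisons with WT mice, of WT ages and of regions came from 1 fit of the 12 libraries, with terms for region and for the 4 pairs of genotype and stage. These fits treat striatum and cortex as independent. CPM values used the TMM factors of all 12 libraries. Alternatives were DESeq2 1.42.0, limma 3.58.1 (voom, mouse as random block), upper-quartile factors, no filter, at least 1 CPM in every library, a replicate block, sex as a term, Rn45s removed, a threshold of 0.01, a mean per group over all libraries, and each HD library left out. Leaving out both libraries that stood apart was chosen after seeing the data. The scripts were tested on simulated data.

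The members and the gene lists were chosen with earlier results of these data known. Values per library were given for members with an adjusted p under 0.05 in any comparison and for the member with the highest mean in each role. Insig1, Lss and Idi1 were given per library outside this rule, after their values were seen. Up to 5 genes of each neighbouring list were named per comparison. Marker genes that passed, and genes that overlap a member, were named outside the rule. Gene positions came from GENCODE M21 (GRCm38) and promoter windows from RefSeq.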

Additional observations from a re-analysis of the deposited data

Results flagged for a closer look

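For 16 of the 33 genes every HD library lay on one side of the WT library in striatum and on the other side in cortex at 1 or both ages. The difference was not tested, since each WT group is 1 library. At 13 weeks 9 of the 33 genes did so, where 14.54% of all genes tested did, and at 8 weeks 9 did, where 19.06% did. The values that follow are the log2 ratio of HD to WT in striatum less that in cortex.

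At 13 weeks the difference was 0.81 for Hsd17b7, 0.79 for Ebp, 0.33 for Sc5d, 1.21 for Nr1h3, -0.31 for Lrp1, 0.47 for Apoe, 1.02 for Npc1, 0.63 for Npc2 and 1.02 for Stard4. Of these 9 genes 8 were above WT in striatum and below it in cortex, and Lrp1 was the other way. With post-symptomatic HD cortex replicate 2 left out, the difference was 0.67 for Stard4.

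At 8 weeks it was -2.90 for Idi1, 0.41 for Fdft1, -0.65 for Srebf1, 0.63 for Srebf2, -0.67 for Insig2, 0.82 for Nr1h2, 0.52 for Apoe, -1.81 for Abcg1 and 1.13 for Npc1. Of these 9, 5 were above WT in striatum and below it in cortex and 4 the other way. Apoe and Npc1 were the 2 genes in which the libraries split in this way at both ages. With pre-symptomatic HD striatum replicate 2 left out, the difference at 8 weeks was 0.59 for Npc1, 0.34 for Apoe and -3.97 for Idi1. The value of Idi1 includes the single WT striatum library at 18.6 CPM.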

How the results depend on the processing

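Counts here are of the 33 genes called. The share of all genes called also moves with the setting, as the fits without pre-symptomatic HD striatum replicate 2 above show. It is not given beside these counts, so a count alone is not a result about these genes. Between HD stages 10 were called, 2 at a threshold of 0.01, and 2 to 16 with 1 HD library left out. In HD striatum, with 0 called, DESeq2 gave 8, no filter 4, the fit of a mean per group over all libraries 1, both libraries that stood apart left out 4, and leaving out 1 library 0 to 13. In HD cortex, with 0 called, these gave 3 by DESeq2, 2 with no filter, 5 without both libraries and 0 to 8 without 1. Against WT mice at 13 weeks 8 were called, 4 with sex as a term or a mean per group, 3 at a threshold of 0.01 and 4 to 10 without 1 library. Between regions 4 were called, 0 at a threshold of 0.01, 10 without both libraries and 1 to 9 without 1. For the change with age in HD less that in WT mice DESeq2 gave 2, leaving out both libraries 1 and leaving out 1 library 0 to 1. The log2 fold change of Apoe between HD stages turned positive with upper-quartile factors (0.0084), and with 1 library left out it ran from -0.13 to 0.045. The causes were not tested. Depth limited Nr1h3, Idi1 and Tm7sf2 most, with under 50 counts in a library.

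Whether the replicate numbers pair the libraries was not settled. Deviations of same-numbered libraries correlated at 0.20 and 0.11 between regions and at 0.26 and 0.045 between stages. Same-numbered striatum and cortex libraries of a genotype and age were of the same sex, as those of 1 mouse would be. If they share mice, the main tests count more libraries than mice. With a replicate block 11 genes were called between HD stages, 8 against WT mice at 13 weeks (without Acat2) and 5 between regions (without Srebf1), and Apoe against WT mice at 13 weeks went to -0.079. Without 1 library it ran from -0.061 to 0.16. The block equals sex in HD mice.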
